A study of Xenopus laevis with 54 samples.

Results

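Messages of the nodal ligands, of the related ligand gdf3 and of the antagonist lefty were followed in blastulae of the frog Xenopus laevis, an allotetraploid in which many genes exist as an L and an S homeolog. The 9 genes were taken by name from the 50489 genes of the deposited table: the ligands nodal.L, nodal1.L, nodal1.S, nodal2.L, nodal5.L, nodal6.L and gdf3.S, and the antagonists lefty.L and lefty.S. RefSeq, with assembly Xenopus_laevis_v10.1, lists gdf3.S also as derriere, nodal.L also as nodal4 or Xnr4, and lefty also as antivin. Embryos were wild type, received 5-ethynyl uridine (EU) by injection into the 1-cell embryo, 10 nl at 50 mM for about 0.5 mM in the embryo, and were collected as blastulae at 5, 6, 7, 8 and 9 hours post fertilization (hpf). EU is a uridine analog that enters newly made RNA. It was biotinylated and captured on streptavidin, which split the RNA into a bead fraction and an uncaptured flowthrough. The 54 libraries were 20 bead, 12 total RNA and 20 flowthrough libraries of whole embryos and 2 libraries of unfertilized eggs. All 3 fractions of replicates 1 and 2 came from experiment 1, at each of the 5 times. Replicates 3 and 4 came from experiment 2, with beads and flowthrough at each time but total RNA at 5 hpf only, and the 2 egg libraries were made in that experiment too. The replicates were separate clutches, per the series' design text.

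Nodal ligands are secreted TGF-beta family proteins that bind activin receptors together with an EGF-CFC co-receptor. The receptors phosphorylate Smad2 and Smad3, which join Smad4 and the DNA-binding partner FoxH1 and switch on genes of mesoderm and endoderm, in several vertebrates including genes of the nodal family themselves and lefty. Lefty is a diffusible inhibitor that binds the ligand or the co-receptor, so that it limits the range of Nodal. In Xenopus the maternal T-box factor VegT and nuclear beta-catenin induce nodal5 and nodal6, which are known for expression ahead of the other nodal genes, and gdf3 (derriere) patterns posterior mesoderm.

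Values are DESeq2-normalized whole numbers, here called normalized values, and they are given in the order of replicates 1, 2, 3 and 4. Detection on beads differed between the experiments. In bead libraries 23212 to 28348 genes were above 0 in experiment 1, and 12814 to 18990 in experiment 2. In flowthrough 11963 genes had 50 or more in every library. On beads of replicate 4, 23.1% of these genes were listed at 0 at 9 hpf and 19.5% at 8 hpf, on beads of replicate 3 it was 13.1% at 9 hpf, and on 9 hpf beads of experiment 1 it was 0%. A 0 in a bead library of experiment 2 is therefore reported only as listed, and results are given with and without that experiment. Of the 15 maternal messages used to check the labels, 14 reached a value of 10 in each of the 4 sample types, and their summed level was 4915 to 11781 on beads, 10303 to 14111 in total RNA, 8568 to 11399 in flowthrough and 13036 to 14628 in eggs. The 12 markers of late differentiation summed to 0 to 157 on beads, 48 to 92 in total RNA, 9 to 45 in flowthrough and 56 to 74 in eggs, and the 15 markers of follicle, ovary and blood summed to 2 to 262 on beads, 42 to 207 in total RNA, 44 to 279 in flowthrough and 7 to 46 in eggs.

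Among the members other than nodal1.S, nodal5.L and nodal6.L stood nearest to their own 9 hpf level on the beads at 7 and 8 hpf in experiment 1. The nodal1.S message stayed low there, with means of 7.5 at 7 and 8 hpf and 8 at 9 hpf, and is left out of this order. In bead RNA nodal5.L was at 4, 2, 17 and 0 at 5 hpf, 14, 11, 13 and 71 at 6 hpf, 120, 50, 13 and 45 at 7 hpf, 69, 84, 62 and 188 at 8 hpf, and 120, 100, 307 and 0 at 9 hpf. The nodal6.L message was at 0, 7, 0 and 0 at 5 hpf, 15, 22, 0 and 115 at 6 hpf, 102, 39, 19 and 0 at 7 hpf, 89, 98, 92 and 0 at 8 hpf, and 120, 141, 2 and 0 at 9 hpf. In experiment 1 both stood above their 5 hpf values in each library of 7 hpf. From there nodal5.L averaged 85, 76.5 and 110 at 7, 8 and 9 hpf, and nodal6.L averaged 70.5, 93.5 and 130.5. In experiment 2 both scattered, and replicate 4 listed both at 0 at 9 hpf. On beads of experiment 2 the S copy nodal6.S, not a member, summed to 383 at 9 hpf, beside 2 of nodal6.L. At 6 hpf these sums were 0 of nodal6.S and 115 of nodal6.L. In experiment 1 at 9 hpf they were 98 of nodal6.S and 261 of nodal6.L. With both experiments in the fit the log2 difference of 9 against 5 hpf, on the log2(value + 1) scale, was 3.44 ± 1.43 for nodal5.L and 3.16 ± 1.56 for nodal6.L (SE), and neither passed (limma, adjusted p = 0.156 and 0.238). In experiment 1 alone the same differences were 4.84 ± 0.52 and 5.53 ± 0.87 (limma, adjusted p = 0.000219 and 0.00249), and without replicate 4 both also passed (limma, adjusted p = 0.00492 and 0.0324).

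With both experiments in the fit, gdf3.S was the one member called higher on the beads as early as 7 hpf. Its bead values were 1, 2, 5 and 0 at 5 hpf, 18, 36, 0 and 0 at 6 hpf, 233, 193, 100 and 200 at 7 hpf, 398, 464, 205 and 580 at 8 hpf, and 1063, 948, 266 and 656 at 9 hpf. From 7 hpf on every library stood above every 5 hpf library. The log2 difference against 5 hpf was 6.15 ± 1.05 at 7 hpf, 7.30 ± 1.05 at 8 hpf and 8.05 ± 1.05 at 9 hpf (SE; limma, adjusted p = 0.00153, 7.91e-05 and 1.14e-05). The step of 7 against 6 hpf passed as well, at 5.08 ± 1.05 (SE; limma, adjusted p = 0.0186), but not without any 1 of the 4 replicates (limma, adjusted p = 0.0598 to 0.459). At 6 hpf the experiments parted: both libraries of experiment 1 had gained gdf3.S (log2 difference of 6 against 5 hpf 3.44 ± 0.37, limma, adjusted p = 0.00644 in experiment 1 alone) and both of experiment 2 listed it at 0. In the 6 hpf bead library of replicate 3 no gene had a value above 0 and below 9, so low values could not be seen there.

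The ligands nodal.L, nodal1.L and nodal2.L were listed at 0 in all 4 bead libraries of 5 hpf, so no fold is given against that time. On the beads nodal.L was at 0, 2, 0 and 0 at 6 hpf, 36, 10, 12 and 0 at 7 hpf, 81, 79, 12 and 0 at 8 hpf, and 220, 219, 45 and 235 at 9 hpf. The values of nodal1.L were 0, 3, 0 and 0 at 6 hpf, 6, 4, 0 and 47 at 7 hpf, 28, 34, 56 and 0 at 8 hpf, and 168, 137, 13 and 171 at 9 hpf. Those of nodal2.L were 0, 1, 0 and 0 at 6 hpf, 3, 3, 1 and 0 at 7 hpf, 39, 41, 34 and 211 at 8 hpf, and 237, 260, 182 and 407 at 9 hpf. All 4 libraries of 9 hpf lay above all of 5 hpf for each of the 3 genes, and nodal2.L alone among them also had all 4 libraries of 8 hpf above all of 7 hpf. How many of all genes separate in these ways was not counted. Against 5 hpf, nodal.L and nodal2.L passed at 8 hpf (limma, adjusted p = 0.0463 and 0.000107), nodal.L no longer without replicate 1, 2 or 3 (limma, adjusted p = 0.554, 0.573 and 0.116), and all 3 passed at 9 hpf (limma, adjusted p = 0.000111 for nodal.L, 0.00129 for nodal1.L and 1.07e-06 for nodal2.L). The 8 hpf call of nodal.L was also lost with log2(value + 10), with quantile scaling and without the experiment term (limma, adjusted p = 0.113, 0.072 and 0.215). It was narrowly lost with a value of at least 50 and without robust estimation (limma, adjusted p = 0.0511 and 0.051), and lost without the filter (limma, adjusted p = 0.0852). For nodal2.L the step of 8 against 7 hpf was 4.64 ± 0.87 on the log2(value + 1) scale (SE; limma, adjusted p = 0.0259), and this call was lost in experiment 1 alone (limma, adjusted p = 0.122) and without any 1 of the 4 replicates (limma, adjusted p = 0.054 to 0.932). It was also lost without the filter, with quantile scaling and without the experiment term (limma, adjusted p = 0.0546, 0.106 and 0.233). With quantile scaling the member called for this step was lefty.L instead (limma, adjusted p = 0.0364).

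Both lefty copies were listed at 0 on the beads at 5 hpf and appeared by 6 to 7 hpf. On the beads lefty.L was at 3, 4, 0 and 0 at 6 hpf, 39, 24, 0 and 0 at 7 hpf, 183, 198, 30 and 486 at 8 hpf, and 632, 609, 50 and 184 at 9 hpf. Bead values of lefty.S were 4, 2, 0 and 0 at 6 hpf, 42, 22, 0 and 57 at 7 hpf, 68, 74, 0 and 0 at 8 hpf, and 181, 134, 253 and 0 at 9 hpf. The L copy stood above its 5 hpf values in every library from 8 hpf, while the S copy was still listed at 0 in replicate 4 at 9 hpf. Against 5 hpf lefty.L passed at 8 and 9 hpf (limma, adjusted p = 0.000143 and 2.46e-05), and lefty.S passed at 9 hpf only (limma, adjusted p = 0.0164). The lefty.S call was lost without replicate 1, 2 or 3 (limma, adjusted p = 0.159, 0.145 and 0.0766).

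**Figure D1:**
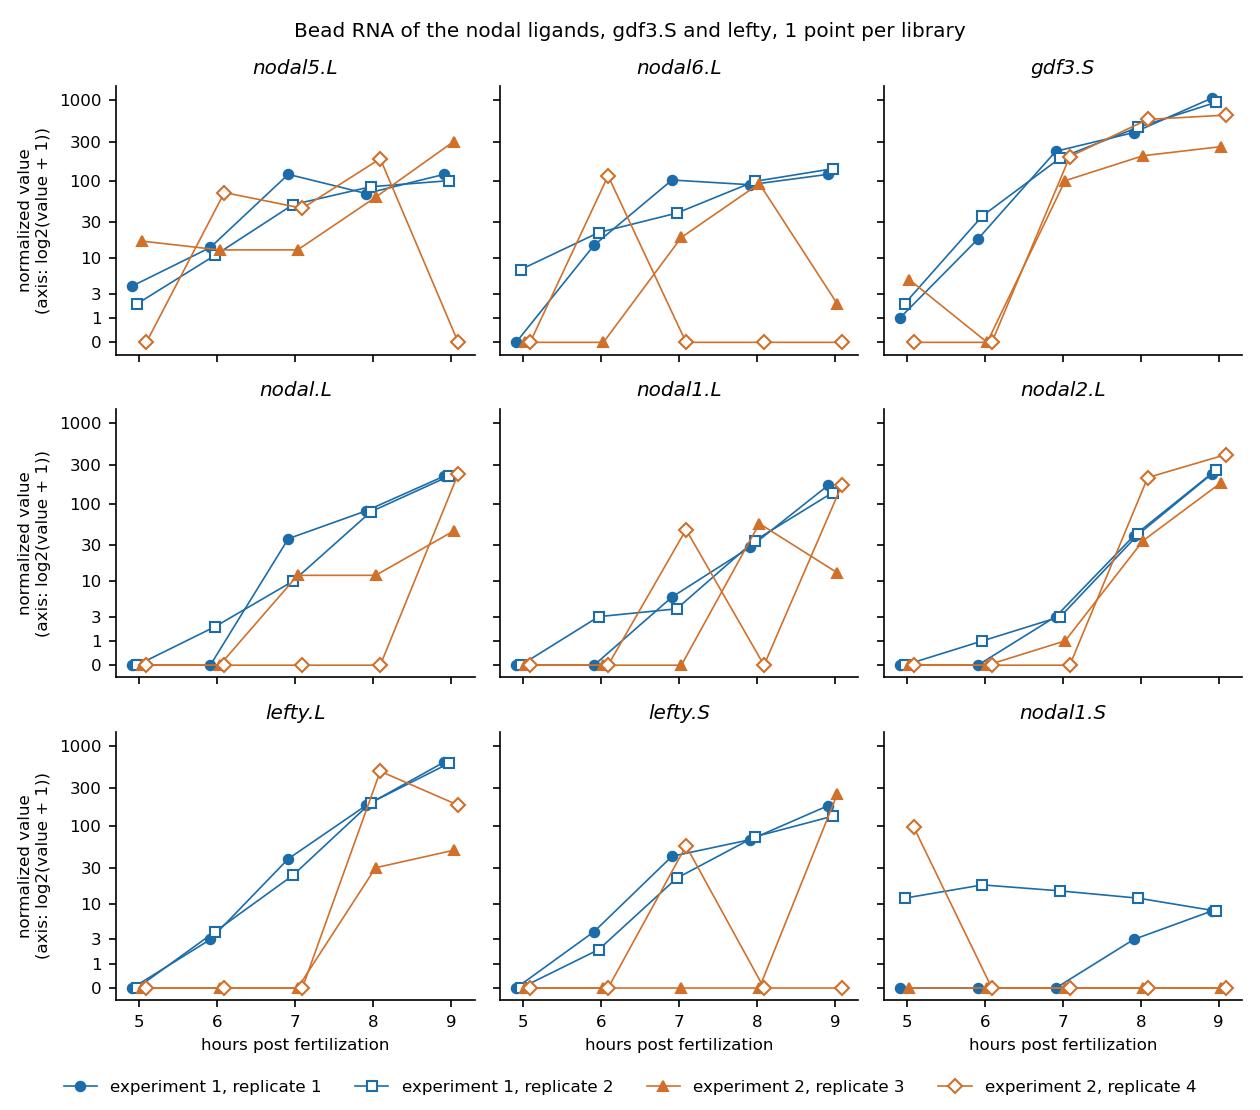
Normalized values of the 9 genes in bead RNA against hours post fertilization, 1 point per library, on an axis of log2(value + 1) with values as tick labels; lines join libraries of the same replicate number, circles and open squares are experiment 1, triangles and diamonds experiment 2. In experiment 1 nodal5.L and nodal6.L are at 39 to 120 by 7 hpf while nodal2.L, at 3 in both libraries at 7 hpf, reaches 237 and 260 at 9 hpf, and several points of experiment 2 drop to 0.

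Counted over the 9 genes, calls on the beads accumulated with time. Calls required an adjusted p below 0.05 together with a change of 2-fold or more. Against 5 hpf, 0 of 9 members were called higher at 6 hpf (0 at an unadjusted p under 0.05, limma), where 0.101% of all genes tested were. At 7 hpf 1 of 9 was called, beside 1.25% of all genes, at 8 hpf 4 of 9, beside 3.16%, and at 9 hpf 6 of 9, beside 5.83%. The count at 8 hpf was 3 in every fit with both experiments that lost the nodal.L call. None of the 9 was called lower at 9 hpf, where 1.43% of all genes were (limma). The median log2 difference of 9 against 5 hpf was 6.44 over the members and -0.33 over all genes tested. The member median is the value of nodal1.L, listed at 0 at 5 hpf, so its size depends on the pseudocount. For nodal1.L it was 7.42 with log2(value + 0.5) and 3.35 with log2(value + 10). In experiment 1 alone the counts were 1 of 9 at 6 hpf, 6 at 7 hpf, 8 at 8 hpf and 8 at 9 hpf, beside 0.15%, 2.47%, 4.86% and 8.3% of all genes, and nodal1.S was the member not called at 8 or 9 hpf. The 2 members not yet called at 7 hpf there, apart from nodal1.S, were nodal1.L and nodal2.L (limma, adjusted p = 0.243 and 0.323), while lefty.L and lefty.S had passed (limma, adjusted p = 0.000228 and 0.00123). Between neighbouring times, 1 member passed in 7 against 6 hpf, gdf3.S, beside 0.609% of all genes, 1 in 8 against 7 hpf, nodal2.L, beside 0.111%, and 0 in 9 against 8 hpf, beside 0.0435% (limma, 2 at an unadjusted p under 0.05). Removing replicate 1 or 2 ended the gdf3.S call at 7 hpf (limma, adjusted p = 0.161 and 0.0984), and without replicate 4 nodal.L was called at 7 hpf and nodal1.L and nodal6.L at 8 hpf (limma, adjusted p = 0.0266, 0.00486 and 0.0112). Experiment 2 alone gave 0 calls at 7, 8 and 9 hpf (limma, 1, 3 and 4 members at an unadjusted p under 0.05). The shares of all genes in that fit are not given here.

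Set as a percentage of the gene's own 9 hpf mean, a measure free of gene length, the bead values of experiment 1 gave an order of timing. The low nodal1.S is left out of it. At 8 hpf nodal6.L stood at 71.6% (68.2% and 75.1% in the 2 libraries) and nodal5.L at 69.5% (62.7% and 76.4%). The next were lefty.S at 45.1% (43.2% and 47.0%) and gdf3.S at 42.9% (39.6% and 46.1%). After these came nodal.L at 36.4% (36.0% and 36.9%) and lefty.L at 30.7% (29.5% and 31.9%). The last were nodal1.L at 20.3% (18.4% and 22.3%) and nodal2.L at 16.1% (15.7% and 16.5%). Within the first 2 of these pairs of neighbours the libraries overlapped, and the other neighbours did not overlap at n = 2. At 7 hpf the spread was wider: nodal5.L was at 77.3% and nodal6.L at 54.0%, gdf3.S at 21.2% and lefty.S at 20.3%, nodal.L at 10.5%, lefty.L at 5.08%, nodal1.L at 3.28% and nodal2.L at 1.21%. In the means of experiment 1 both lefty copies thus stood below nodal5.L and nodal6.L and above nodal1.L and nodal2.L at 7 and at 8 hpf. The libraries of lefty.L and nodal1.L overlapped at 7 hpf, at 3.87% to 6.29% and 2.62% to 3.93%. With both experiments the order did not hold throughout. There lefty.L was at 4.27% and nodal1.L at 11.7% at 7 hpf, and lefty.S was at 25.0% and nodal2.L at 29.9% at 8 hpf. In experiment 2 alone nodal5.L did not lead. At 7 hpf it was at 18.9%, below gdf3.S at 32.5%, nodal1.L at 25.5% and lefty.S at 22.5%, and above lefty.L, nodal.L and nodal2.L. At 8 hpf it was at 81.4%, below gdf3.S at 85.1% and lefty.L at 221%, and above lefty.S, nodal.L, nodal1.L and nodal2.L. The nodal6.L mean of 1 at 9 hpf there was too low for a percentage.

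**Figure D2:**
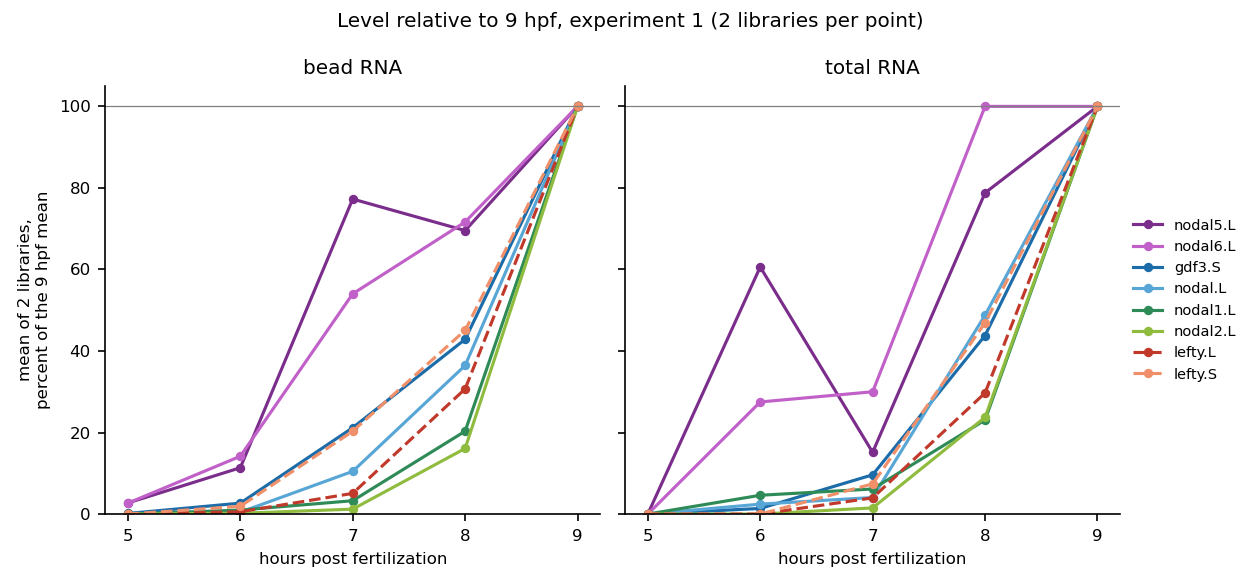
Mean of the 2 libraries of experiment 1 as a percentage of the same gene's 9 hpf mean (vertical axis) against hours post fertilization, for bead RNA and total RNA; dashed lines are the lefty copies, and nodal1.S is not drawn. On the beads nodal5.L and nodal6.L are above the other members drawn at 7 and 8 hpf, at 77.3% and 54.0% at 7 hpf, and nodal2.L is lowest with 1.21% at 7 hpf.

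In total RNA, which holds old and new molecules alike, the same members led, with nodal1.S again left out. At 8 hpf, in percent of the 9 hpf mean, nodal6.L was at 100%, nodal5.L at 78.8%, nodal.L at 48.8%, lefty.S at 46.9%, gdf3.S at 43.8%, lefty.L at 29.7%, nodal2.L at 23.7% and nodal1.L at 23.1%. The levels behind the first 2 were low, since nodal6.L had 21 and 19 at 8 hpf and 26 and 14 at 9 hpf, and nodal5.L 13 and 13 at 8 hpf and 12 and 21 at 9 hpf. At 6 hpf nodal5.L already had 13 and 7 in total RNA, and at 7 hpf it had 1 and 4. Its libraries of 6, 8 and 9 hpf overlap, so the 9 hpf level was not separable from that of 6 hpf.

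Whether ligands changed against lefty over time was tested on the log2 ratio of each of the 7 ligands to each lefty copy in bead RNA, 8 against 7 hpf and 9 against 8 hpf. None of the 28 comparisons passed (exact two-sided permutation test, 4 against 4 libraries, smallest adjusted p = 0.4). The smallest p this design allows is 0.0286. After adjustment over 28 tests no ratio could pass unless more than 16 reached it together. The test could therefore not have shown a change of a single ratio. The smallest p found was that value, and it belonged to nodal5.L against lefty.L: the log2 ratio was -0.74 ± 1.18 at 8 hpf and 2.99 ± 2.07 at 7 hpf (SD, n = 4), a difference of -3.73. Within replicate numbers 1 to 4 the difference was -2.99, -2.26, -2.78 and -6.89, lower at 8 hpf in all 4. The ratios of gdf3.S, nodal.L, nodal6.L and nodal1.S to lefty.L were also lower at 8 than at 7 hpf in all 4 numbers. Those of nodal1.L and nodal2.L to lefty.S were higher in all 4. Each of these ratios had p = 0.125 (exact two-sided sign-flip test), the smallest that 4 pairs allow. Zeros limit these directions. In replicates 3 and 4 lefty.L was listed at 0 at 7 hpf and lefty.S at 0 at 8 hpf. In replicate 4 nodal1.L was listed at 0 at 8 hpf, and nodal.L and nodal6.L at 0 at both times. For nodal1.S replicates 3 and 4 were at 0 at both times. In experiment 1 alone the ratio of nodal5.L to lefty.L changed by -2.62 for 8 against 7 hpf and by -1.18 for 9 against 8 hpf. That of nodal2.L to lefty.L changed by 0.76 and 0.90, with 2 libraries a time and no test. In experiment 1 the nodal5.L ratio was thus lower, and the nodal2.L ratio higher, at the later time of both steps.

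The rule that chose the genes used no position, and from RefSeq only the next gene on each side was read. In that order nodal5.2.L lies between nodal5.L and nodal6.L, and nodal2.L is adjacent to nodal1.L. The distance between these groups of genes was not read, so whether they form separate clusters is not given. Of the 8 members in the bead order, nodal5.L and nodal6.L held the top places at 7 and 8 hpf in experiment 1, and the adjacent pair nodal1.L and nodal2.L the bottom places. These copies arose by duplication, and where their sequences are near-identical the authors' quantification could divide or share reads among them, so values of nodal5.L, nodal6.L and the other nodal5 and nodal3 rows are uncertain to that extent.

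Apart from nodal1.S, the members were at 0 to 7 in every flowthrough library, while at 9 hpf the bead libraries of experiment 1 held each of them at 100 or more. At 9 hpf gdf3.S was at 1063, 948, 266 and 656 on the beads, against 5, 7, 2 and 7 in the flowthrough, a log2 difference of 6.80 ± 0.76 (SE; limma, adjusted p = 1.24e-08). The lefty.L message was at 632, 609, 50 and 184 on the beads, against 0, 4, 1 and 0 in the flowthrough (limma, adjusted p = 5.38e-09). For nodal2.L the flowthrough held 0, 0, 0 and 1 (limma, adjusted p = 1.27e-13). The groups did not overlap for these 3 genes, and nodal.L and nodal1.L also kept apart, with 0 in all 20 flowthrough libraries of the series. How many of all genes keep apart in this way was not counted. The other members with bead signal, nodal5.L, nodal6.L and lefty.S, were called at 9 hpf (limma, adjusted p = 0.000123, 0.0105 and 0.00017) although 1 bead library of experiment 2 listed each at 0.

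Counted by time, 0 of 9 members were called higher on the beads than in the flowthrough at 5 hpf, beside 0.436% of all genes (limma, 0 members at an unadjusted p under 0.05), and 2 at 6 hpf, beside 0.919%. The 2 at 6 hpf were nodal5.L and nodal6.L (limma, adjusted p = 0.00787 and 0.0466), both listed at 0 in all 4 flowthrough libraries of that time. The counts were 6 of 9 at 7 hpf, beside 3.39% of all genes, 8 at 8 hpf, beside 6.59%, and 8 at 9 hpf, beside 9.35%. At 7 hpf nodal1.L, nodal2.L and nodal1.S had not passed (limma, adjusted p = 0.0561, 0.139 and 0.879), and from 8 hpf nodal1.S alone had not. Without replicate 1 or without replicate 2 the count was 0 at 6 hpf, 2 at 7 hpf and 5 at 8 hpf, and without replicate 4 it was 1 at 5 hpf, nodal5.L (limma, adjusted p = 0.0292). At 9 hpf nodal6.L was not called without replicate 1 or 2 (limma, adjusted p = 0.0976 and 0.129). The median difference of all genes tested at 9 hpf was -0.69 in log2 with both experiments and 0.02 in experiment 1 alone, where 8 members were again called. The shares of all genes in these alternative fits are not given, so their counts are not read as results about the members.

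**Figure D3:**
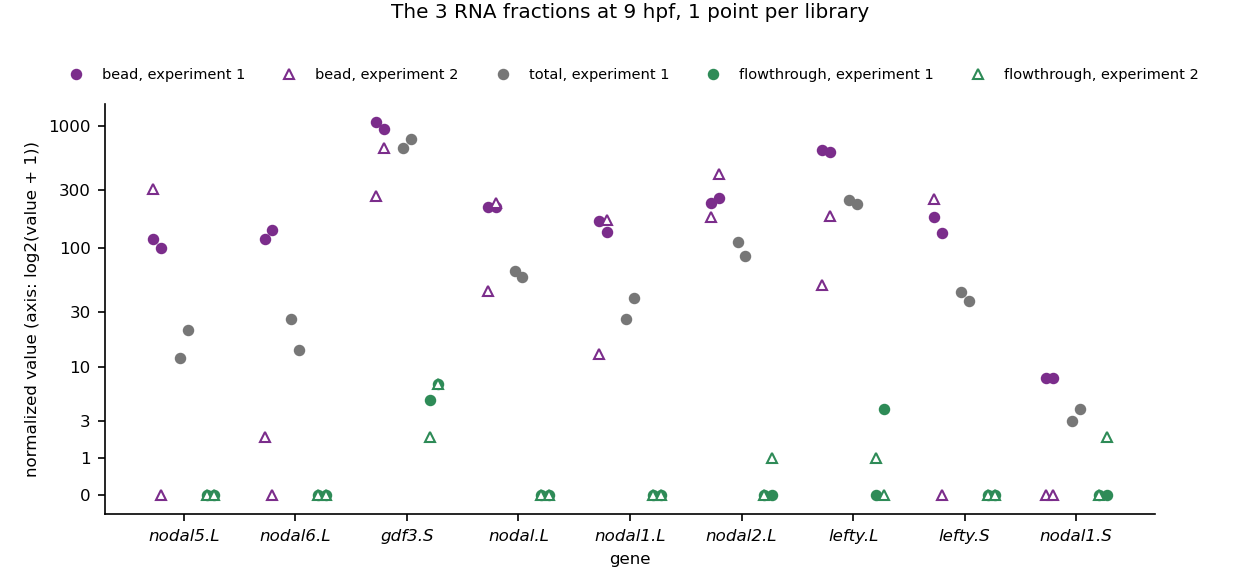
Normalized values at 9 hpf of the 9 genes in bead, total and flowthrough RNA, from left to right for each gene, 1 point per library on an axis of log2(value + 1) with values as tick labels; filled circles are experiment 1 and open triangles experiment 2. The flowthrough libraries sit at 0 to 7 for all 9 genes, with gdf3.S highest at 2 to 7.

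Within the flowthrough, 1 of the 9 members, nodal1.S, passed the filter of a value of at least 10 in 4 libraries, and it was not called for 9 against 5 hpf (limma, adjusted p = 0.454, 0 called of 1, beside 0.202% of all genes called higher). The flowthrough values of gdf3.S at 9 hpf, 5, 7, 2 and 7, stood against 0, 3, 0 and 0 at 5 hpf, and the groups overlapped. Without the filter gdf3.S was called higher there (limma, adjusted p = 0.0244).

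Total RNA of whole embryos gained the same 8 members. At 9 hpf total RNA held 661 and 782 of gdf3.S, against 0, 0, 2 and 0 at 5 hpf, and 247 and 231 of lefty.L, against 0 in all 4 libraries of 5 hpf. The nodal2.L values at 9 hpf were 112 and 86, those of nodal.L 65 and 58, those of lefty.S 44 and 37, and those of nodal1.L 26 and 39, all against 0 at 5 hpf. Both libraries of 9 hpf were above all 4 of 5 hpf for these 6 genes and for nodal5.L and nodal6.L. The share of all genes that separate in this way was not counted, so this is a description only. In 9 against 5 hpf 8 of 9 members were called higher, beside 6.25% of all genes, and nodal1.S was not (limma, adjusted p = 0.943). With the experiment term, the log2 differences of this comparison come from the libraries of experiment 1, the only ones with total RNA at 9 hpf. The smallest adjusted p was that of lefty.L and the largest among the called that of nodal1.L (limma, 5.28e-06 and 0.00421). Each of these calls rests on the 2 libraries of 9 hpf: without replicate 1 or without replicate 2 no gene of the table was called (limma, all 8 members at an unadjusted p under 0.05). In whole embryos, more RNA per cell and more cells that hold the message cannot be told apart.

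The bead value exceeded the total RNA value for each member at 9 hpf in experiment 1, by ratios that differed between genes. The ratio of means was 6.67 for nodal5.L, 6.53 for nodal6.L, 4.69 for nodal1.L, 3.89 for lefty.S, 3.57 for nodal.L, 2.60 for lefty.L, 2.51 for nodal2.L, 2.29 for nodal1.S and 1.39 for gdf3.S. It compares 2 separately scaled kinds of library, 2 of each, and is not a captured share. For gdf3.S it was 3.06 at 7 hpf, 1.36 at 8 hpf and 1.39 at 9 hpf, and for nodal5.L it was 34.0, 5.88 and 6.67, the first on a total RNA mean of 2.5.

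Eggs held none of the family that these libraries recorded. All 9 members were listed at 0 in both egg libraries. In total RNA of 5 hpf gdf3.S reached 2, nodal5.L and nodal6.L 1 each, and nodal1.S 1, 21, 0 and 18. None of 9 members was called in 5 hpf against egg, beside 0.237% of all genes called higher (limma, 0 members at an unadjusted p under 0.05).

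The balance of the L and S copies of lefty differed between times within experiment 1. The L copy made up 49.6% of the summed bead values of both copies at 7 hpf, 72.8% at 8 hpf and 79.8% at 9 hpf. In total RNA of the same experiment it made up 76.0%, 78.9% and 85.5%. The 76.0% rests on low sums, 19 of lefty.L and 6 of lefty.S, with lefty.S at 0 in 1 library. These shares are not corrected for length, so only their change over time is read. The log2 ratio of L to S on the beads was 0.01 ± 0.16 at 7 hpf, 1.41 ± 0.01 at 8 hpf and 1.99 ± 0.27 at 9 hpf (SD, n = 2). In experiment 2 the beads listed lefty.L at 0 in both libraries of 7 hpf and lefty.S at 0 in both of 8 hpf, and at 9 hpf the L copy made up 48.0% there. The L to S ratio of 9 against 8 hpf over all 4 libraries differed by -1.88 in log2. Over all 4 libraries a time none of the 8 comparisons of L to S ratios passed (exact two-sided permutation test, smallest p = 0.0286, adjusted p = 0.114), and none could unless 5 of the 8 reached that p together. That smallest p was shared by lefty.L to lefty.S in 8 against 7 hpf, with a difference of 5.64, and by nodal1.L to nodal1.S on beads against flowthrough at 9 hpf, with a difference of 5.25.

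The S copy of nodal1 stood apart from the other members in where it was recorded. Its bead values were 0, 12, 0 and 97 at 5 hpf, 0, 18, 0 and 0 at 6 hpf, 0, 15, 0 and 0 at 7 hpf, 3, 12, 0 and 0 at 8 hpf, and 8, 8, 0 and 0 at 9 hpf. In flowthrough it was at 25 and 15 at 5 hpf, 14 and 14 at 6 hpf, 6 and 15 at 7 hpf, 10 and 8 at 8 hpf, and 0 and 2 at 9 hpf in replicates 2 and 4, while replicates 1 and 3 were listed at 0 at every time. In total RNA replicate 2 held 21, 11, 11, 5 and 4 from 5 to 9 hpf and replicate 1 held 1, 0, 0, 2 and 3, and at 5 hpf replicate 3 held 0 and replicate 4 held 18. The message was thus recorded at 5 hpf mainly in replicates 2 and 4, and it was the one member above 3 in a flowthrough library of that time. For nodal1.S no comparison of times or fractions passed: in 9 against 5 hpf the log2 difference was -0.99 ± 1.35 on beads and -1.78 ± 1.40 in flowthrough (SE; limma, adjusted p = 0.709 and 0.454). RefSeq holds 5 predicted and 0 curated transcripts for nodal1.S, against 1 curated transcript for nodal1.L, and both copies lie beside an ash2l copy. The nodal1.L message was at 0 in all flowthrough libraries, in replicates 2 and 4 as well.

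**Figure D4:**
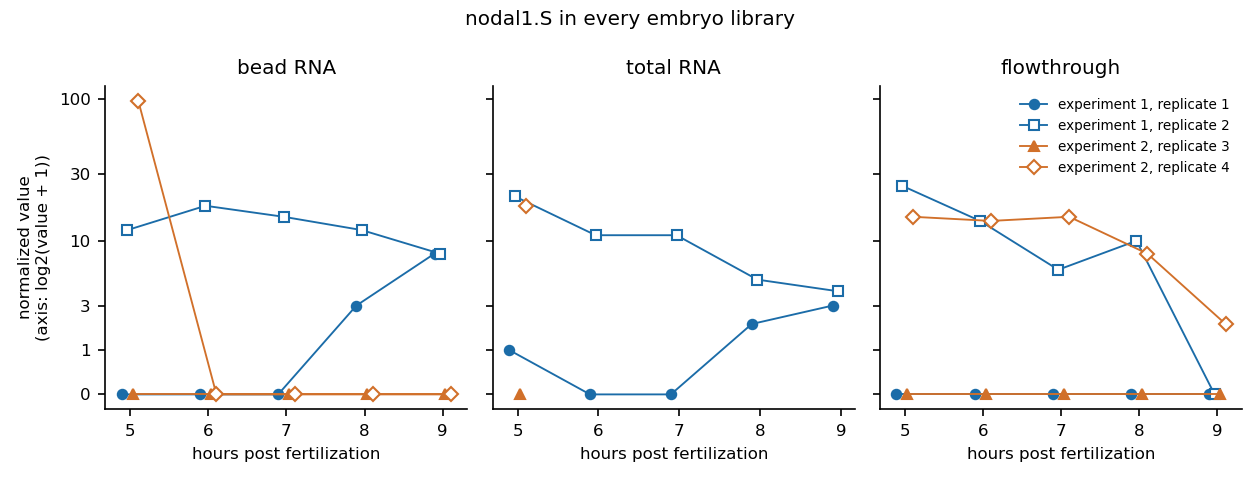
Normalized values of nodal1.S in bead, total and flowthrough RNA against hours post fertilization, 1 point per library on an axis of log2(value + 1) with values as tick labels; lines join libraries of the same replicate number, circles and open squares are experiment 1, triangles and diamonds experiment 2. In flowthrough the replicates 2 and 4 lie at 25 and 15 at 5 hpf and at 0 and 2 at 9 hpf, and replicates 1 and 3 stay at 0.

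Other genes of the pathway were followed by their roles, from lists of symbols with any L or S copy. The receptors and co-receptors did not pass in either direction in bead RNA of 9 against 5 hpf: 0 of 11 tested genes were called (limma), beside 5.83% of all genes called higher and 1.43% lower, with a median log2 difference of -0.54 against -0.33 for all genes. A count of 0 of 11 is near these shares and is not read as a result about the receptors. The type I receptor acvr1b.S was at 826 ± 207 at 9 hpf and 1186 ± 212 at 5 hpf, and the type II receptor acvr2b.S at 678 ± 355 at 9 hpf and 816 ± 129 at 5 hpf (SD, n = 4; limma, adjusted p = 0.0941 and 0.4).

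Of 21 signal transducers 2 were called higher and 0 lower, beside 5.83% and 1.43% of all genes. A count this small is near the share over all genes and is not read as a result about the list. On the beads the DNA-binding partner foxh1.2.L was at 4017, 2930, 2743 and 1684 at 9 hpf, against 9, 4, 0 and 0 at 5 hpf, a log2 difference of 10.00 ± 0.63 (SE; limma, adjusted p = 4.71e-10). A row of the common Smad smad4.2.S was at 284, 274, 767 and 1777 at 9 hpf, against 141, 177, 242 and 251 at 5 hpf (limma, adjusted p = 0.0325). The count of 2 was 1 without replicate 1, 2 or 3. The coactivator ep300.L changed by 0.79 ± 0.11, under the 2-fold limit, and smad4.1.S by 0.26 ± 0.55 (SE; limma, adjusted p = 3.02e-05 and 0.828). Of 18 genes listed as maternal inducers and other ligands of the same receptors, 2 were called higher and 0 lower, again near the 5.83% of all genes called higher. These 2 were the copies of the SoxB factor sox3, which restrains nodal5 in Xenopus and is neither an inducer nor a ligand. No other gene of that list was called. For sox3.S the log2 difference of 9 against 5 hpf was 2.00 ± 0.16 (SE; limma, adjusted p = 1.6e-08). The sox3.L values were 8709, 6272, 3096 and 1032 at 9 hpf, against 2848, 2553, 1023 and 1107 at 5 hpf (limma, adjusted p = 0.00701), and this count too was 1 without replicate 1, 2 or 3. Beta-catenin did not pass, at -0.15 ± 0.25 for ctnnb1.L and 0.25 ± 0.14 for ctnnb1.S (SE; limma, adjusted p = 0.761 and 0.299).

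Of 26 genes listed as intracellular and secreted inhibitors, 9 were called higher and 0 lower, beside 5.83% and 1.43% of all genes. Their median log2 difference was 0.46, against -0.33 for all genes. Bead values of the secreted Nodal antagonist cer1.S were 240, 150, 579 and 649 at 9 hpf, against 0, 2, 0 and 0 at 5 hpf, a log2 difference of 8.02 ± 1.01 (SE; limma, adjusted p = 7.81e-06). The Smad corepressor tgif2.S was at 2962, 1918, 2386 and 3371 at 9 hpf, against 727, 730, 428 and 503 at 5 hpf, a log2 difference of 2.16 ± 0.26 (SE; limma, adjusted p = 4.64e-06). The transmembrane proteins flrt3.L and flrt3.S were at 679, 845, 521 and 307 and at 273, 296, 305 and 838 at 9 hpf and were listed at 0 at 5 hpf. Both are among the 9 because the list holds them, and they are not counted here as known Nodal antagonists. The Smad4 ubiquitin ligase trim33 did not pass, at 0.14 ± 0.26 for trim33.L and 0.02 ± 0.23 for trim33.S (SE; limma, adjusted p = 0.796 and 0.974). The count of 9 fell to 5 without replicate 1 and to 2 in experiment 2 alone, and the shares of all genes in those fits are not given here.

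Of 38 tested target genes 31 were called higher and 0 lower, beside the same 5.83% and 1.43%, with a median log2 difference of 8.69. Bead values of the homeobox gene mix1.L were 5699, 6158, 6910 and 8742 at 9 hpf, against 4, 12, 34 and 0 at 5 hpf, a log2 difference of 9.94 ± 0.68 (SE; limma, adjusted p = 1.89e-09). Its relatives bix1.2.L and bix1.1.L gained 10.55 ± 0.69 and 8.82 ± 0.64 (SE; limma, adjusted p = 9.27e-10 and 3.68e-09), and the forkhead gene foxa4.L was at 1563, 1894, 1403 and 1967 at 9 hpf, against 0 in all 4 libraries of 5 hpf (limma, adjusted p = 5.05e-08). The homeobox gene hhex did not pass, with hhex.L at 183, 241, 6 and 0 at 9 hpf, against 0, 11, 6 and 0 at 5 hpf, and hhex.S at 89, 113, 6 and 190, against 23, 5, 18 and 13 (limma, adjusted p = 0.278 and 0.365). In experiment 1 alone 44 of 47 tested targets were called, beside 8.3% of all genes. In experiment 2 alone 17 of 36 were called, and the share of all genes in that fit is not given here. The filter on low values keeps genes that are high in any group, so genes silent at both times are outside these counts.

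**Figure D5:**
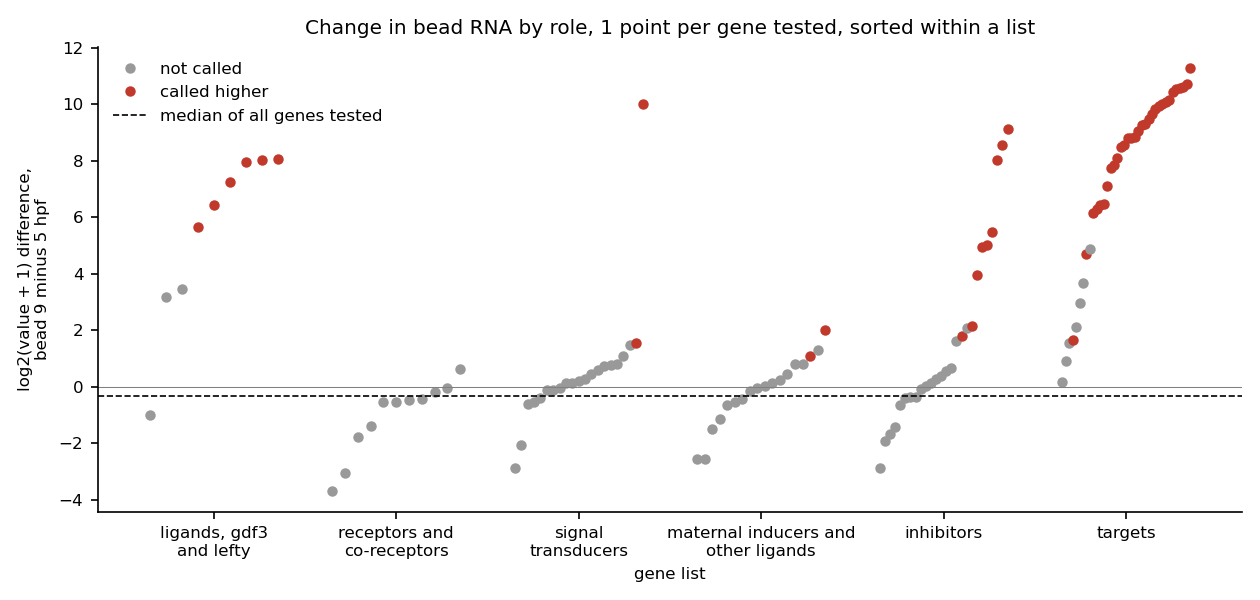
Difference in bead RNA of 9 minus 5 hpf on the log2(value + 1) scale (vertical axis) for each gene tested, sorted within the 9 family members and 5 lists of pathway genes (horizontal axis); red points were called higher, grey points were not called, and the dashed line is the median of all genes tested, -0.33. The targets are mostly high, 31 of 38 called higher, beside 5.83% of all genes. Of 11 receptors 0 were called, which is near that share.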

How the data were processed

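Ribosomal RNA was depleted from the bead, total, flowthrough and egg libraries, per the labels' protocols. The authors deposited 1 table of 50489 genes by 54 libraries whose values, here treated as a score, are normalized whole numbers; Salmon 0.12.0 and DESeq2 are named in the submitters' processing notes, and no test used the build or annotation, not given in the sources used here. Rounding after normalization hides the read numbers, so depth is unknown and no counting interval could be made. In the 6 hpf bead library of replicate 3 the smallest value above 0 was 9. The most common value there was 13, which was also the value of nodal5.L. In every other library the smallest value above 0 was at most 3. A 0 in that 6 hpf library cannot be told from values under 9.

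Tests used limma 3.58.1 with statmod 1.5.0 (R 4.3.3; trended, robust) on log2(value + 1), over genes that reached 10 in as many libraries as the smallest group holds, with a term for experiment, and in bead against flowthrough fits also experiment by fraction. P-values were adjusted by Benjamini-Hochberg over all genes tested, and the code was tested on simulated data. Log2 ratios used exact permutation tests with SciPy 1.17.1. Fold changes on this scale understate changes of low genes.

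The members, lists and rules for named genes were chosen with earlier results of these data known. All 9 members are named; of each pathway list, up to 4 called genes with the smallest adjusted p and 2 uncalled ones with the highest mean; the symbol chrd matched no row under its own name and was not counted. Alternatives varied the pseudocount (0.5 and 10), the filter (none and 50), scaling, the experiment term, a replicate block, robust estimation, the experiments used and each replicate. Gene neighbours are from RefSeq, which matched 15 of 18 rows named nodal, gdf3 or lefty. Figures used matplotlib 3.10.9 in Python 3.11.15.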

Additional observations from a re-analysis of the deposited data

Results flagged for a closer look

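Within groups of 4 libraries, 21 of the 58 groups of a member with any spread held 1 library far from the other 3 by Dixon's criterion, which chance meets in about 1 of 20 groups. In 15 of the 21 the other 3 libraries were listed at 0, which meets the criterion whatever the fourth value is, so that rate does not apply to them. Of the 43 groups with fewer than 3 libraries at 0, 6 met it. For nodal1.S 1 library stood out at 97 at 5 hpf (replicate 4), 18 at 6 hpf and 15 at 7 hpf (replicate 2 in both). High single bead libraries were 71 for nodal5.L at 6 hpf and 211 for nodal2.L at 8 hpf, both replicate 4, 47 for nodal1.L at 7 hpf, also replicate 4, and 7 for nodal6.L at 5 hpf. Low single libraries were 45 for nodal.L at 9 hpf (replicate 3) and 0 for nodal6.L at 8 hpf (replicate 4). The remaining bead groups held 2 of nodal.L, 3 of nodal1.L and 1 of nodal2.L in replicate 2 at 6 hpf, where the other 3 libraries were at 0.

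In flowthrough the single libraries were 2 of nodal1.S and 1 of nodal2.L at 9 hpf, 2 of nodal5.L and 2 of lefty.L at 8 hpf, and 3 and 1 of gdf3.S at 5 and 7 hpf. In total RNA of 5 hpf they were 1 of nodal5.L, 1 of nodal6.L and 2 of gdf3.S.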

How the results depend on the processing

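The replicate block, replicate number within experiment in place of the experiment term, changed no count of members called, with 6 of 9 in bead RNA and, added after seeing the data, 8 of 9 in total RNA of 9 against 5 hpf. Deviations of same-numbered libraries correlated across genes at 0.605 to 0.835 in experiment 1 and at 0.0789 to 0.839 in experiment 2, over 0.1 in 105 of 105 pairs of experiment 1 and 53 of 55 of experiment 2, where 2 pairs of bead libraries were not, so the numbers were not taken as pairs. Log2 ratios compared within replicate numbers, added after seeing the data, gave 0 that passed. Of 277 recomputed counts, those of pathway lists added after seeing the data, 217 stayed within 1.5 times the reported count and 60 did not, and the cause was not tested. In experiment 1 alone the members called on beads were 1 at 6, 6 at 7 and 8 at 8 against 5 hpf, 4 in 7 against 6 and 0 in 8 against 7 hpf (limma, 5 at an unadjusted p under 0.05). In experiment 2 alone they were 0 at 7, 8 and 9 against 5 hpf and 0 in 7 against 6 and 8 against 7 hpf (limma, 1, 3, 4, 1 and 2 at an unadjusted p under 0.05), and against flowthrough 0, 1, 4 and 5 at 6 to 9 hpf, and 1 transducer, 1 inducer, 2 inhibitors and 17 targets were called. Inducers and inhibitors in these counts are genes of those lists, sox3 and flrt3 included. Most counts of alternative fits stand without the share of all genes in the same fit. A changed count is therefore not read as a result about the members or the lists. Without the experiment term the counts were 0 in 7 against 6 and in 8 against 7 hpf, 0 at 6 and 2 at 7 hpf against flowthrough, 1 transducer and 1 inducer. With log2(value + 10) they were 0 and 2 against flowthrough at 6 and 7 hpf. Without the filter they were 0 in 8 against 7 hpf, 1 at 6 hpf against flowthrough, 1 in flowthrough of 9 against 5 hpf, and 1 transducer. With a value of at least 50, 4 members were called in total RNA, and quantile scaling gave 1 at 6 hpf against flowthrough and 1 inducer. Leaving out 1 replicate gave 0 to 2 at 7 and 3 to 6 at 8 against 5 hpf, 0 to 0 in 7 against 6 and 8 against 7 hpf, 0 to 8 in total RNA, 0 to 1, 0 to 3, 2 to 6 and 5 to 8 at 5 to 8 hpf against flowthrough, 1 to 2 transducers, 1 to 2 inducers and 5 to 9 inhibitors. A lone 9 hpf library of total RNA is then assumed to vary like the other groups. In experiment 2 alone gdf3.S changed by -1.29 in 6 against 5 hpf and nodal5.L by -0.32 in 7 against 6 hpf, the opposite direction. In experiment 1 alone the ratio of lefty.L to lefty.S changed by 1.40 and that of nodal1.S to lefty.L by -1.75 in 8 against 7 hpf. Detection on beads was lowest in experiment 2.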

Other observations

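The table held 9 further rows named nodal, of which RefSeq matched 6. Several of these rows were as early as nodal5.L and nodal6.L, or earlier, on the beads of experiment 1, in percent of their own 9 hpf mean. The row nodal5.8.L averaged 25.5 at 7 hpf, 25.5 at 8 hpf and 15.5 at 9 hpf, so it stood at 165% at 7 and at 8 hpf. The rows nodal5.5.L and nodal5.6.L were too low for such a percentage, with bead means of at most 6.5 and 1 there. At 8 hpf nodal6.S stood at 99.0%, nodal5.2.L at 82.0% and nodal3.2.L at 76.0%, and at 7 hpf they stood at 60.2%, 52.4% and 54.2%. The S copy nodal.S was late, at 15.5% at 8 hpf and 0% at 7 hpf, beside 36.4% and 10.5% for nodal.L. The 2 rows named nodal3.1.L stood at 46.4% and 20.03% at 7 hpf and at 29.8% and 51.6% at 8 hpf, on 2 libraries each, and copies this alike may share reads. In bead RNA of 9 against 5 hpf nodal.S, nodal6.S, nodal3.2.L and both nodal3.1.L rows were called higher (limma, adjusted p = 0.0392, 0.0186, 0.0066, 0.00302 and 0.0176), and nodal5.2.L was not (limma, adjusted p = 0.0905). On the beads nodal5.2.L was at 248, 290 and 116 at 9 hpf in replicates 1 to 3 and at 0 in replicate 4. None of the 9 rows exceeded 5 in any flowthrough library or 0 in eggs.

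Over the means of 16 groups that share their libraries and scaling, the genes with the profile most like each member, among 14326 genes whose highest group mean was at least 50, were as follows. They are a description with no test. The profile of lefty.L was nearest to the BMP antagonist chrd.2.L (Pearson's r of mean log2(value + 1) 0.99), that of gdf3.S to the growth factor fgf8.S (0.99), that of nodal2.L to lin28a.S (0.99) and that of nodal.L to sall3.L (0.99). For lefty.S it was cnn2.S (0.99), for nodal1.L nectin1.L (0.98), for nodal6.L rasd1.L (0.97) and for nodal5.L nodal3.2.L (0.96). The nearest to nodal1.S was prrx1.L, at 0.80.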
